A study of Mus musculus with 9 samples.

Results

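The cardiac myosin heavy chain genes are Myh6, Myh7 and Myh7b, and all 3 were found by symbol among the 13890 genes of the heart count table. Myh7 was chosen from earlier results of these libraries, for its difference between T and S and between A + T and T, and Myh6 and Myh7b were taken because they are its paralogues in heart muscle. The values of Myh7 are therefore given as a description, with no P-value. All 3 genes passed the filter on low counts that left 13364 genes to be tested.

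The libraries came from hearts of male NSG mice, an immunodeficient strain that lacks T, B and natural killer cells, operated at 8 weeks of age. The labels give 3 weeks after surgery, whereas the study's methods place the killing of the mice and the taking of hearts a few days later. Sham-operated mice (S, animals 2, 3 and 5) received saline in the spleen and weekly injections of saline into the abdomen. Mice labelled T (animals 11, 12 and 15) received HCT116 cells, a human colorectal cancer line that spreads from the spleen to the liver, and the same weekly saline. Mice labelled A + T (animals 20, 21 and 22) received the same cells and weekly ACVR2B/Fc, a soluble form of the activin receptor type 2B that traps myostatin and activins. The model is 1 cell line in 1 immunodeficient strain and sex, and no library used here carries a label of ACVR2B/Fc alone. The comparisons ask how the heart differed in tumour hosts and whether ACVR2B/Fc given to the hosts altered that difference.

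Over the genes that the study's supplementary list names, the libraries labelled T differed from S more nearly in the way listed for ACVR2B/Fc without tumour than in the way listed for tumour hosts. Whether the label is right was not tested, and T is used here as a label. Animal 22 of A + T stood apart from animals 20 and 21, with 837 counts of the atrial gene Bmp10 against 4 and 5, and with 17508 counts of the airway gene Scgb1a1 against 0 and 0. Animal 12 of T also stood apart in Scgb1a1, with 1345 counts against 1 and 5 in animals 11 and 15. Bmp10 had 1196, 3119 and 1270 counts in animals 2, 3 and 5 of S, and 30, 19 and 19 in animals 11, 12 and 15 of T. Library totals ran from 12392222 to 19732471 counts, and the ribosomal precursor Rn45s took between 4.57% and 19.6% of them.

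Myosin heavy chain is the motor of the thick filament: its head binds actin and splits ATP, and its tail packs with others into the filament. In the adult mouse ventricle the fast alpha chain from Myh6 dominates, whereas the slower and more economical beta chain from Myh7 belongs to the fetal heart and to slow skeletal muscle. A rise of Myh7 relative to Myh6 is a long-known feature of pressure overload, heart failure and hypothyroidism in rodents. Myh7b encodes a further, sparsely expressed chain whose transcripts in heart are largely processed without making full-length protein.

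On GRCm38 (mm10), Myh6 spans bases 54941921 to 54966927 of chromosome 14, on the minus strand, and Myh7 lies beside it from 54970684 to 54994626 on the same strand. Only 3756 bases separate the end of Myh7 from the start of Myh6. Myh7b lies on chromosome 2 from 155611212 to 155634307, on the plus strand. Each gene carries a microRNA of 1 family in an intron: intron 29 of Myh6 holds Mir208a, intron 31 of Myh7 holds Mir208b and intron 19 of Myh7b holds Mir499, counted in the first GENCODE transcript of each gene. The mature strands are shown because they are products of the same primary transcripts as the members, with the seed (bases 2 to 8) in capitals, from RefSeq on GRCm38.p6.
mmu-miR-208a-3p: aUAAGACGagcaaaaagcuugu
mmu-miR-208b-3p: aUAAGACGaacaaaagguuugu
mmu-miR-499-5p: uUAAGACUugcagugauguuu
The miR-208a and miR-208b strands share the seed UAAGACG, and miR-499 carries UAAGACU. The count table lists none of the 3 microRNA genes, so the microRNAs themselves were not measured.

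Because the alpha and beta chains are close paralogues, the sequences set how well their reads can be told apart. The coding sequences of Myh6 and Myh7 were identical at 91.6% of 5805 aligned bases, whereas Myh7b matched Myh6 at 71.5% and Myh7 at 71.9%. Of the 75-base windows of the Myh6 transcript, 939 of 6039 (15.5%) occurred unchanged in Myh7 and in no other gene, and Myh7b shared no such window with any gene. The most different 75-base stretch of the coding sequences is shown with the 30 differing bases in capitals. It spans coding bases 3237 to 3311 of Myh6 and 3231 to 3305 of Myh7, counted from 1 at the A of the start codon.
Myh6: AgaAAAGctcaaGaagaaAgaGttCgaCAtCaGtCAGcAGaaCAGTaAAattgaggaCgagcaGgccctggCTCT
Myh7: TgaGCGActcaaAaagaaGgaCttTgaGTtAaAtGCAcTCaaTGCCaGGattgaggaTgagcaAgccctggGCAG
The longest identical stretch ran for 245 bases, from coding base 4246 of Myh6 and 4240 of Myh7. It is shown because a 75-base read that falls wholly within it has the same sequence whichever gene it came from.
Myh6 and Myh7: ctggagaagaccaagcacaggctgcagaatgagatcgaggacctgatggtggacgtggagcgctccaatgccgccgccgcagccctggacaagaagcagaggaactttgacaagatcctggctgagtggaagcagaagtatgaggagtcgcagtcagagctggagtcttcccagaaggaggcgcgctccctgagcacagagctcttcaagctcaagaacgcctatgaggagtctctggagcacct
The authors counted uniquely mapped pairs, so pairs without a distinguishing base would be missing from both genes alike. The 939 windows of each gene stand for single reads, whereas a pair is concerned only if neither of its reads holds a distinguishing base. The share of such pairs was not computed, and levels of Myh6 and Myh7 are uncertain to that extent.

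**Figure D1:**
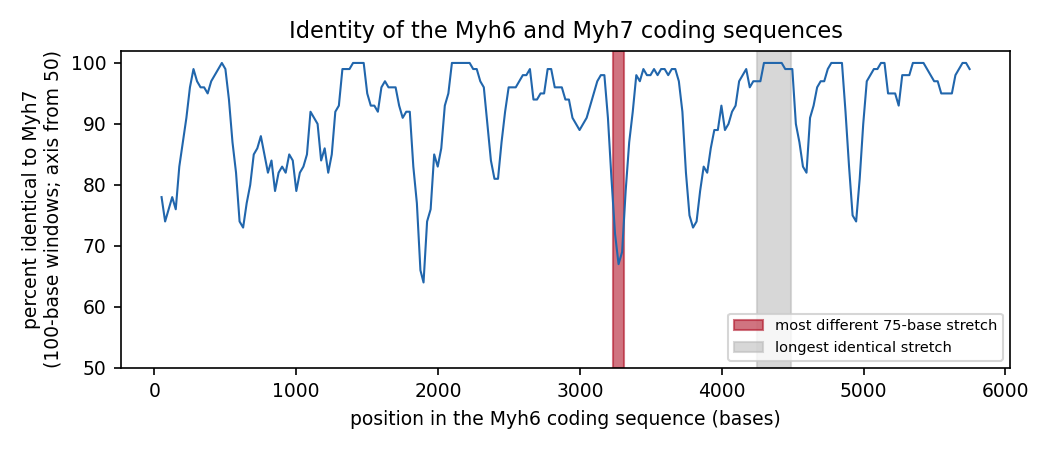
The line gives the percent of bases of the Myh6 coding sequence that match Myh7 in 100-base windows (y axis, from 50%), along the position in the Myh6 coding sequence in bases (x axis). The red band marks the 75 bases with 30 differences and the grey band the identical 245 bases. Windows below 80% occur in several places up to position 4948 and none after it, and other stretches reach 100%.

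Myh7, the beta chain, was low in S, high in T and again low in A + T, though not as low as in S. Levels are given in CPM, counts relative to the library total per 1000000 counts, with the totals scaled by the trimmed mean of M-values (TMM). In S the level of Myh7 was 1535, 1254 and 1292 CPM in animals 2, 3 and 5. In T it was 11600, 12798 and 11976 CPM in animals 11, 12 and 15, and in A + T it was 2583, 2251 and 2396 CPM in animals 20, 21 and 22. No 2 groups overlapped: the lowest T library exceeded the highest A + T library, and the lowest A + T library exceeded the highest S library. Myh7 was chosen because T differed from both other groups, so the separation of T follows from the choice. A probability of separating by chance does not apply there. How many of all genes separated in this way was not computed.

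The group means of Myh7 were 1360 ± 152 CPM in S, 12125 ± 613 CPM in T and 2410 ± 166 CPM in A + T (mean ± SD, n = 3). T vs. S gave a log2 fold change of 3.16 (SE 0.118, 95% interval 2.89 to 3.42), that is 8.91-fold. In A + T vs. T it was −2.33 (SE 0.114, 95% interval −2.58 to −2.08), so T was 5.03-fold above A + T. In A + T vs. S it was 0.83 (SE 0.110, 95% interval 0.58 to 1.07), that is 1.77-fold. All 3 contrasts rest on the same 9 libraries, and both of the first 2 use T, so they are not independent of each other. By size of change, Myh7 stood in place 12 from the highest among the 13364 genes in T vs. S and in place 8 from the lowest in A + T vs. T, and in place 588 from the highest in A + T vs. S. Myh7 was chosen for the first 2 of these differences, so its places there follow from the choice.

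**Figure D2:**
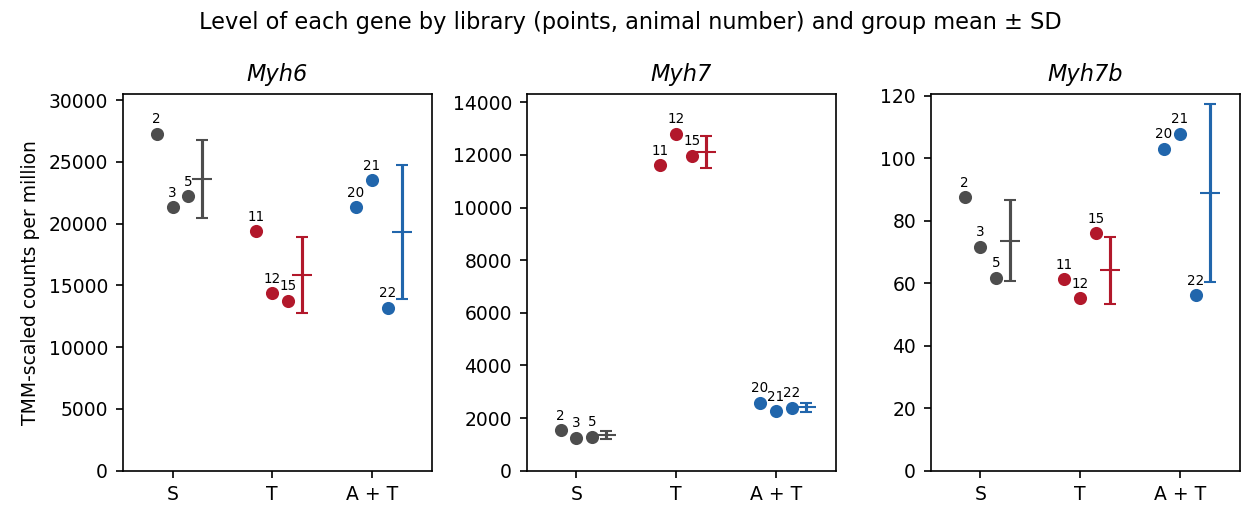
TMM-scaled CPM (y axis, linear from 0) of Myh6, Myh7 and Myh7b in each library (points, with the animal number) by group (x axis), with the group mean and SD beside the points (n = 3). The T points of Myh7 lie between 11600 and 12798 and those of the other groups at 2583 or below, whereas animal 22 is the lowest A + T point for Myh6 and Myh7b, at 13196 and 56.2.

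Myh6, the alpha chain, overlapped between groups more than Myh7. Its level in S was 27271, 21357 and 22248 CPM in animals 2, 3 and 5. In T it was 19374, 14351 and 13767 CPM in animals 11, 12 and 15, and in A + T it was 21317, 23506 and 13196 CPM in animals 20, 21 and 22. Every T library lay below every S library, while A + T overlapped both, with animal 21 within the range of S, animal 20 just under the lowest S library and animal 22 below every T library. With 3 animals a group, 2 groups that do not differ separate fully, in either direction, with a probability of 0.1. As for Myh7, the share of all genes whose T and S libraries separate in this way was not computed.

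The mean of Myh6 was 23626 ± 3189 CPM in S, 15831 ± 3083 CPM in T and 19340 ± 5432 CPM in A + T (mean ± SD, n = 3). In T vs. S the log2 fold change was −0.58 (SE 0.216, 95% interval −1.06 to −0.10), with an adjusted P = 0.0833 by edgeR's quasi-likelihood test, which missed the threshold of 0.05. Across all genes tested, 11% were called lower in T vs. S and 10.3% higher, so a lower call is common in that comparison. The call for Myh6 turned on the setting. The adjusted P was 0.0207 with DESeq2, 0.0273 with S and T alone in the edgeR fit, 0.0305 with scaling by cardiomyocyte genes and 0.0154 without animal 22 of A + T, against a range of 0.0669 to 0.109 for the other alternatives that kept every animal. Myh6 gave a log2 fold change of 0.29 in A + T vs. T (95% interval −0.19 to 0.77, adjusted P = 0.469 by edgeR) and of −0.29 in A + T vs. S (95% interval −0.77 to 0.19, adjusted P = 0.426 by edgeR). The call rates there were 3.09% higher and 2.79% lower in A + T vs. T, and 4.67% higher and 3.64% lower in A + T vs. S. Neither difference of Myh6 exceeded the spread between animals, and both moved with animal 22: without it they were 0.50 (adjusted P = 0.0907 by edgeR) and −0.07 (adjusted P = 0.832 by edgeR).

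Myh7b was expressed far below both other chains. Its level in S was 87.5, 71.7 and 61.8 CPM in animals 2, 3 and 5. In T it was 61.3, 55.2 and 76.1 CPM in animals 11, 12 and 15, and in A + T it was 103, 108 and 56.2 CPM in animals 20, 21 and 22. The groups overlapped in each comparison, and animal 22 was again the lowest of its group.

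Its mean was 73.7 ± 13.0 CPM in S, 64.2 ± 10.8 CPM in T and 89.0 ± 28.5 CPM in A + T (mean ± SD, n = 3). The log2 fold change of Myh7b was −0.20 (95% interval −0.71 to 0.30, adjusted P = 0.561 by edgeR) in T vs. S and 0.27 (95% interval −0.23 to 0.77, adjusted P = 0.480 by edgeR) in A + T vs. S. In A + T vs. T it was 0.47 (95% interval −0.03 to 0.98, adjusted P = 0.250 by edgeR). Without animal 22 that value was 0.72 with an adjusted P = 0.0204, so animal 22 decided whether Myh7b passed the threshold there.

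**Figure D3:**
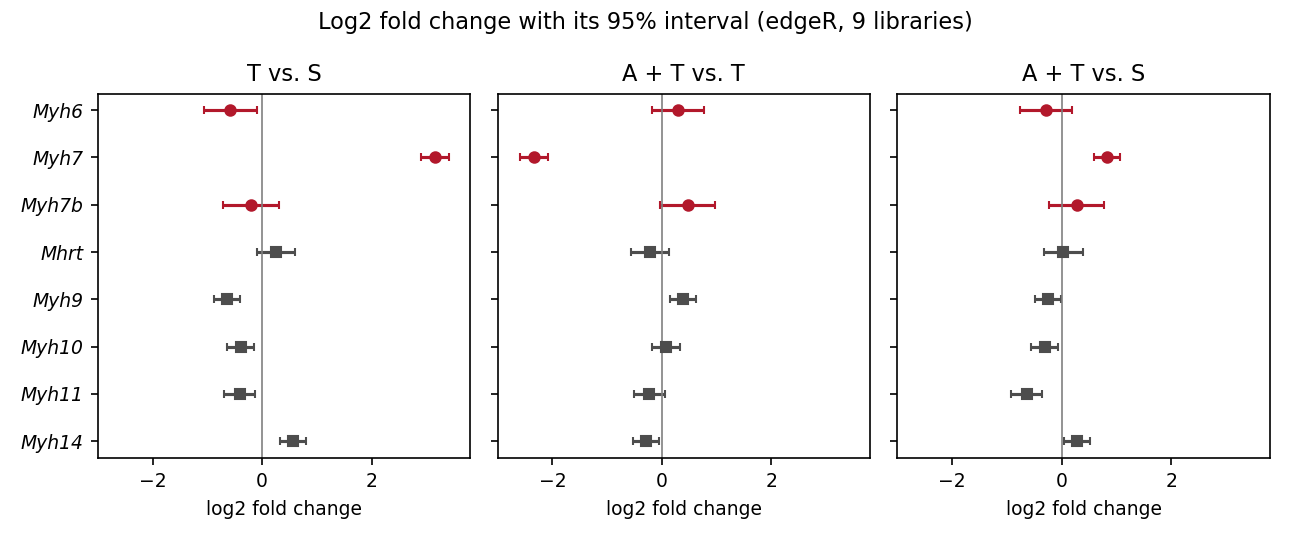
Log2 fold change (x axis) with its 95% interval from edgeR for Myh6, Myh7 and Myh7b (red circles) and for Mhrt and the other 4 myosin heavy chain genes in the table (grey squares), in the 3 comparisons. Myh7 lies at 3.16, −2.33 and 0.83, and the other 7 genes lie between −0.64 and 0.57 in each panel.

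Levels of different genes can be compared per length from the deposited log2 values, which as CPM per kilobase of transcript (RPKM) put the order of the chains as Myh6, Myh7, Myh7b in each group mean. In S the means were 3862 ± 519 RPKM for Myh6, 223 ± 24.9 RPKM for Myh7 and 11.97 ± 2.10 RPKM for Myh7b (mean ± SD, n = 3). In T they were 2593 ± 510, 1994 ± 96.5 and 10.4 ± 1.75 RPKM in the same order. In A + T they were 3162 ± 891, 396 ± 27.4 and 14.5 ± 4.64 RPKM. The 2 major chains came closest in T, where Myh6 and Myh7 were at 3179 and 1911 RPKM in animal 11, 2345 and 2100 RPKM in animal 12, and 2255 and 1970 RPKM in animal 15. By mean deposited level, Myh7 stood in place 247 of 13889 genes in S, place 16 in T and place 143 in A + T, with Rn45s left out.

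The make-up of the myosin heavy chain counts does not depend on the scaling between libraries. Myh7 made up 5.31%, 5.53% and 5.47% of the counts of the 3 genes in animals 2, 3 and 5 of S. The share was 37.4%, 47.0% and 46.4% in animals 11, 12 and 15 of T, and 10.8%, 8.70% and 15.3% in animals 20, 21 and 22 of A + T. The 95% Wilson interval of a single library's share was at most 0.372 percentage points wide and covers counting error only. The S shares lay within 1 percentage point of each other, whereas the shares of T and of A + T spread over several points and no 2 groups overlapped. Myh7 was chosen for its difference between T and each other group, so the separation of the T shares follows from the choice.
The mean share was 5.44% ± 0.11 for S, 43.6% ± 5.40 for T and 11.6% ± 3.38 for A + T (mean ± SD, n = 3). Expressed as a ratio, there were 17.3 ± 0.38 counts of Myh6 for each count of Myh7 in S, 1.31 ± 0.31 in T and 8.07 ± 2.47 in the A + T libraries. Animal 22 had the highest Myh7 share of A + T although its Myh7 level lay between those of animals 20 and 21, since its Myh6 level was the lowest. Without it the mean share of A + T was 9.73%.

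**Figure D4:**
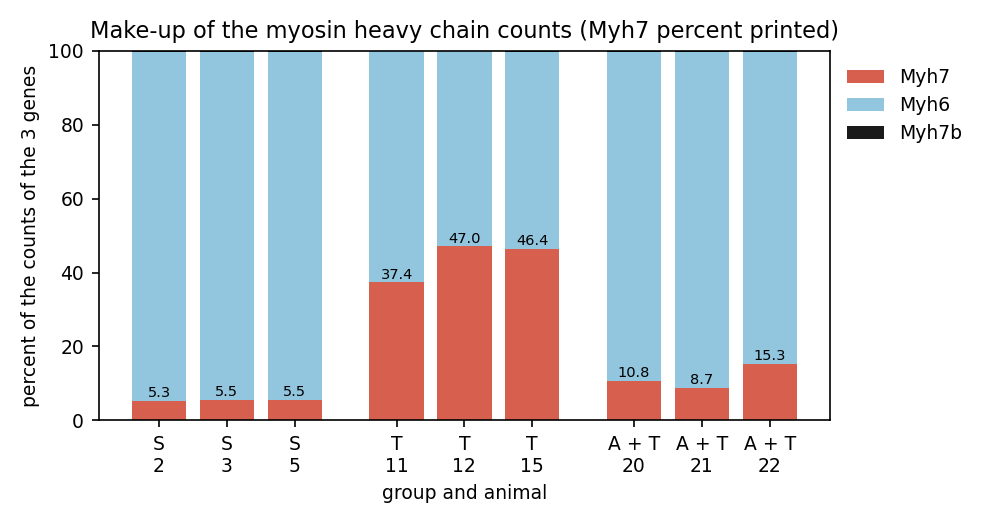
Stacked bars give each gene's percent of the summed counts of Myh6, Myh7 and Myh7b (y axis, 0 to 100) in each of the 9 libraries (x axis, group and animal), with the Myh7 percent printed. Myh7 (red) reaches 37.4% to 47.0% in T, against at most 5.53% in S and 15.3% in A + T, and Myh7b at the top is too thin to see, at 0.430% or less.

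The summed level of the 3 chains differed less than their make-up. It was 25060 ± 3352 CPM in S, 28019 ± 2702 CPM in T and 21839 ± 5441 CPM in A + T (mean ± SD, n = 3), and the groups overlapped. Animal 22 had the lowest sum, 15648 CPM, against 24003 and 25865 CPM in animals 20 and 21. With Rn45s left out of the totals, the 3 genes took 2.89% ± 0.34 of the counts of S, 3.07% ± 0.28 of T and 2.57% ± 0.55 of A + T. In bulk tissue, fewer cells of a type and less RNA per cell cannot be told apart.

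Between animals of a group, Myh7 varied less than its paralogues in T and in A + T. The SD was 5.05% of the mean for Myh7 in T and 6.90% in A + T, against 19.5% and 28.1% for Myh6 and 16.8% and 32.0% for Myh7b. In S the values were 11.2% for Myh7, 13.5% for Myh6 and 17.6% for Myh7b. A choice by difference between groups can favour a gene with little spread within them. The comparison of Myh7 with its paralogues is therefore a description only. Across the 9 libraries the Pearson correlation of log2 CPM was −0.63 between Myh6 and Myh7, 0.60 between Myh6 and Myh7b and −0.33 between Myh7 and Myh7b. These describe 9 points that share 3 groups and carry no test.

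Markers of the cell types were set beside these values. The 8 cardiomyocyte markers (Tnnt2, Tnni3, Actc1, Actn2, Ryr2, Pln, Myl2 and Myl3) were high in each library, with a summed level of 45887 to 47199 CPM in S, 42682 to 48909 CPM in T and 38134 to 46647 CPM in A + T. In T vs. S 3 of the 8 were called higher and 1 lower, against 10.3% and 11% of all genes. In A + T vs. T 1 was called lower, against 2.79% of all genes. The 5 atrial markers (Nppa, Myl7, Myl4, Sln and Bmp10) summed to between 2999 and 3083 CPM in S, but to between 861 and 4552 CPM in T and between 793 and 2054 CPM in A + T. The spread within T came from animal 12, which was high in Nppa, Myl7, Myl4 and Sln, and from animal 15, which was low in each. Bmp10 ran otherwise. It was at 66.1, 158 and 91.8 CPM in animals 2, 3 and 5 of S, but at 1.86, 1.13 and 1.78 CPM in animals 11, 12 and 15 of T. In T vs. S 1 of the 5 atrial markers was called lower and none higher, against 11% and 10.3% of all genes. The sum was 1546, 4552 and 861 CPM in animals 11, 12 and 15, beside 19374, 14351 and 13767 CPM of Myh6 and 11600, 12798 and 11976 CPM of Myh7.

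Of the 7 skeletal muscle markers 4 were in the table used here, which does not list the fast skeletal chains Myh1, Myh2 and Myh4. The 4 summed to 1100 to 1200 CPM in S, 625 to 839 CPM in T and 247 to 747 CPM in A + T. Nearly all of that sum was Acta1, skeletal actin, which the heart also expresses (1136 ± 53.8 CPM in S, 728 ± 107 CPM in T and 544 ± 265 CPM in A + T). None of the 4 was called in any of the comparisons, and their median log2 fold change was −0.40 in T vs. S and 0.13 in A + T vs. S. The 4 fibroblast markers fell together in T vs. S (4 of 4 called lower, against 11% of all genes, median log2 fold change −1.26). They summed to 1233 to 1411 CPM in S, 760 to 893 CPM in T and 946 to 1368 CPM in A + T. In A + T vs. T 2 of the 4 were called higher, against 3.09% of all genes. Of the 3 endothelial markers 2 were called lower in T vs. S, against 11% of all genes. In A + T vs. T 1 was called higher, and in A + T vs. S 1 lower, against 3.09% and 3.64%. The 3 macrophage markers were higher in A + T than in each other group. All 3 were called in both comparisons, against 3.09% of all genes higher in A + T vs. T and 4.67% in A + T vs. S. Smooth muscle markers summed to 144 to 169 CPM in S, 64.7 to 118 CPM in T and 89.9 to 92.9 CPM in A + T. Of these 4 markers 2 were called lower in T vs. S, against 11% of all genes, and 2 in A + T vs. S, against 3.64%. The part of these cell types in the values of the members was not tested.

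The 2 promoters are shown because the neighbouring genes Myh6 and Myh7 differed so unequally, from RefSeq on GRCm38.p6, 5′ to 3′ on the minus strand. For Myh6 the 250 bases before the annotated start are printed (chr14:54966608-54966857) and for Myh7 the 300 bases before the lower of its 2 annotated starts (chr14:54994550-54994849). Capitals mark GGAATG, the core of the MCAT element bound by Tead factors, and TATATA, a repeat like a TATA box.
Myh6: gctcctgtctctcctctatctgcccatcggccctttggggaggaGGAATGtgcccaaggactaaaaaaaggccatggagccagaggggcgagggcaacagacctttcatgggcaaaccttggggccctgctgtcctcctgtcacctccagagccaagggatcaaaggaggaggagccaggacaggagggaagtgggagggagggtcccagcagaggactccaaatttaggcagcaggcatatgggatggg
Myh7: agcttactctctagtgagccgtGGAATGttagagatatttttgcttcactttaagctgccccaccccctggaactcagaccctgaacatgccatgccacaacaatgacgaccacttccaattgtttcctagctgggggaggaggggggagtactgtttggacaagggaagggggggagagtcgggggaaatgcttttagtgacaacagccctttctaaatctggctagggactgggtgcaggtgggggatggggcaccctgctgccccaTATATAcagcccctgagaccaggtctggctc
GGAATG began 206 bases before the start of Myh6 and 278 bases before that of Myh7, and TATATA began 31 bases before that of Myh7. Searched on both strands, GGAATG occurred in 14.7% of the 32851 promoter windows in the RefSeq table, which run from 250 bases before to 50 bases after a start, and TATATA in 5.67%. The GGAATG of Myh7 lies outside that window of the lower start, which held 0 matches, and inside that of the upper start, which held 1. TATAAA, the TATA box, began at base 2 after the annotated start of Myh6 and occurred in 13.6% of the windows. Neither window of Myh7 nor that of Myh6 held the exact letters AGGTCA, the half-site of thyroid hormone receptors (16.3% of windows), or AGATAA, a site of GATA factors (11.2%), whereas the window of Myh7b held 1 of each. Sites that vary from these letters were not searched, so a window without a match may still hold a site of either kind. CANNTG, the E-box, occurred in the windows of all 3 genes and in 72.3% of all windows. These are matches of letters and say nothing of what binds there.

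The RNA from the opposite strand of the locus moved little. Mhrt, a long non-coding RNA of the cardiac locus, runs on the plus strand from 54968678 to 54974349 and overlaps the last 3666 bases of Myh7, and the authors' counts used strand. Its level was 52.6 ± 4.25 CPM in S, 62.7 ± 14.7 CPM in T and 53.7 ± 5.87 CPM in A + T (mean ± SD, n = 3). Its log2 fold change was 0.25 (95% interval −0.10 to 0.60, adjusted P = 0.290 by edgeR) in T vs. S and −0.22 (95% interval −0.57 to 0.13, adjusted P = 0.448 by edgeR) in A + T vs. T, so neither difference passed the threshold.
Of the 13 protein-coding neighbours of Myh6 and Myh7 within 100 kb, 7 were tested, with log2 fold changes between −1.16 and 0.38 in T vs. S. Pabpn1, a poly(A)-binding protein, was called higher (0.36, adjusted P = 0.0185 by edgeR) and Efs, a docking protein, was called lower (−1.16), both chosen for mention after their values were seen. That was 1 higher and 1 lower of the 7, against 10.3% and 11% of all genes. In A + T vs. T the range of the 7 was −0.28 to 0.77 and none was called, against 3.09% of all genes higher and 2.79% lower. In A + T vs. S Pabpn1 was again higher (0.35, adjusted P = 0.0405 by edgeR), against 4.67% of all genes. The 5 neighbours of Myh7b were all tested and none was called in any of the 3 comparisons.

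The other myosin heavy chains in the table were the non-muscle chains Myh9, Myh10 and Myh14 and the smooth muscle chain Myh11. In T vs. S 1 of the 4 was called higher and 3 lower, against 10.3% and 11% of all genes. Myh14 rose from 124 ± 17.2 to 184 ± 14.1 CPM (log2 fold change 0.57, adjusted P = 0.00457 by edgeR). Myh9 fell from 138 ± 12.9 to 89.0 ± 13.3 CPM (log2 fold change −0.64, adjusted P = 0.00296 by edgeR), while Myh10 (−0.39) and Myh11 (−0.41) also fell. None of the 4 was called in A + T vs. T, and Myh11 was lower in A + T vs. S (log2 fold change −0.64, adjusted P = 0.0150 by edgeR). Smooth muscle, endothelial and fibroblast markers were lower in T as well, as given above, and their part in these differences was not tested.

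Myosin light chains stabilize the neck of the motor, and their kinases tune it. Of the 15 genes of this list 14 were tested, and the median log2 fold change was −0.28 in T vs. S, against −0.0038 for all genes. The ventricular regulatory chain Myl2, the highest of the list per length, was at 6767 ± 315 CPM in S and 6960 ± 1173 CPM in T, and the ventricular essential chain Myl3 at 3766 ± 225 and 3683 ± 533 CPM. In T vs. S 2 of the 14 fell, the fast skeletal chain Myl1 (−0.58, adjusted P = 0.0238 by edgeR) and the kinase gene Mylk4 (−1.14, adjusted P = 0.0229 by edgeR), and none rose, against 11% of all genes lower and 10.3% higher. In A + T vs. T 1 rose, Myl12b (0.72, adjusted P = 0.0337 by edgeR), against 3.09% of all genes, and in A + T vs. S none was called. Without animal 22, 5 were lower in T vs. S and 1 was called in A + T vs. S. The number of all genes called moved as well, from 2837 to 3786 in T vs. S and from 1110 to 900 in A + T vs. S.

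A further list held partners of the thick filament and factors that assemble or remove myosin. In T vs. S 4 of the 14 tested rose and 1 fell, against 10.3% and 11% of all genes. The 4 were Mybpc2, the fast skeletal form of myosin-binding protein C (1.06, adjusted P = 0.000574 by edgeR), Trim63, the ubiquitin ligase MuRF1 that acts on thick filament proteins (0.74, adjusted P = 0.000915), Trim54, its relative MuRF3 (0.60, adjusted P = 0.000609), and Myom2, an M-band protein that links thick filaments (0.54, adjusted P = 0.00822). Unc45b, a chaperone for myosin folding, fell (−0.38, adjusted P = 0.0231 by edgeR). Mybpc3, the cardiac form and the highest of the list per length, was at 4959 ± 466 CPM in S and 5259 ± 473 CPM in T, and Ttn, the giant protein titin, at 9509 ± 3715 and 10214 ± 4324 CPM.
In A + T vs. T 2 of the 14 fell and none rose, against 2.79% and 3.09% of all genes: Myom2 (−0.54, adjusted P = 0.0264 by edgeR) and Trim54 (−0.51, adjusted P = 0.00678 by edgeR). In A + T vs. S 2 rose and none fell, against 4.67% and 3.64%: Mybpc2 (0.58, adjusted P = 0.0249 by edgeR) and Trim63 (0.39, adjusted P = 0.0414 by edgeR). The list's median log2 fold change was 0.21 in T vs. S, −0.26 in A + T vs. T and −0.01 in A + T vs. S. As with Myh7, the first 2 comparisons share the T libraries.

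The next list held regulators known for control of the 2 main chains. Of 28 tested, 1 rose and 3 fell in T vs. S, against 10.3% higher and 11% lower among all genes. None of the 28 was called in A + T vs. T, where 3.09% and 2.79% of all genes were, and 3 fell in A + T vs. S, against 3.64% of all genes. Tead3, a factor that binds the MCAT element, rose from 13.8 ± 1.99 to 20.3 ± 1.16 CPM in T vs. S (log2 fold change 0.56, adjusted P = 0.00791 by edgeR), while Tead1 of the same family was at 338 ± 44.1 and 347 ± 25.9 CPM. The cardiac factors Gata4 (−0.43, adjusted P = 0.0281 by edgeR), Srf (−0.31, adjusted P = 0.0361) and Nkx2-5 (−0.30, adjusted P = 0.0149) fell in T vs. S. In A + T vs. S the 3 that fell were Srf (−0.50, adjusted P = 0.0113 by edgeR), Nkx2-5 (−0.43, adjusted P = 0.00884) and the retinoid X receptor Rxrg (−0.32, adjusted P = 0.0384). The thyroid hormone receptor genes, which repress Myh7 and drive Myh6 when bound to hormone, gave log2 fold changes of −0.07 for Thra and 0.22 for Thrb in T vs. S, neither of them called.

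The last list held genes that usually share the switch between fetal and adult heart. Of 12 tested in T vs. S, 2 rose and 1 fell, against 10.3% and 11% of all genes, and the median log2 fold change was −0.48. The list mixes genes of the fetal and of the adult state, so its median does not measure the switch. Ankrd1, a nuclear and sarcomeric stress protein, rose from 2694 ± 170 to 5639 ± 584 CPM (log2 fold change 1.07, adjusted P = 0.00099 by edgeR), and Tnnt2, cardiac troponin T, rose by a log2 fold change of 0.34 (adjusted P = 0.0359). Actc1, cardiac actin, fell from 11306 ± 155 to 6067 ± 234 CPM (log2 fold change −0.90, adjusted P = 0.0128 by edgeR). The natriuretic peptide genes and skeletal actin, which commonly rise with Myh7, gave log2 fold changes of −0.12 for Nppa, −0.50 for Nppb and −0.64 for Acta1, none of them called, and the atrial markers that include Nppa varied within T as given above. Atp2a2, the sarcoplasmic calcium pump, was at 13606 ± 524 CPM in S and 13287 ± 214 CPM in T.
In A + T vs. T 1 of the 12 fell, Ankrd1 (−0.70, adjusted P = 0.0237 by edgeR), and none rose, against 2.79% and 3.09% of all genes, whereas in A + T vs. S 1 fell, Nppb (−0.87, adjusted P = 0.0371 by edgeR), against 3.64% of all genes. Without animal 22 these counts were 2 and 3. The number of all genes called then went from 786 to 1006 in A + T vs. T and from 1110 to 900 in A + T vs. S.

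**Figure D5:**
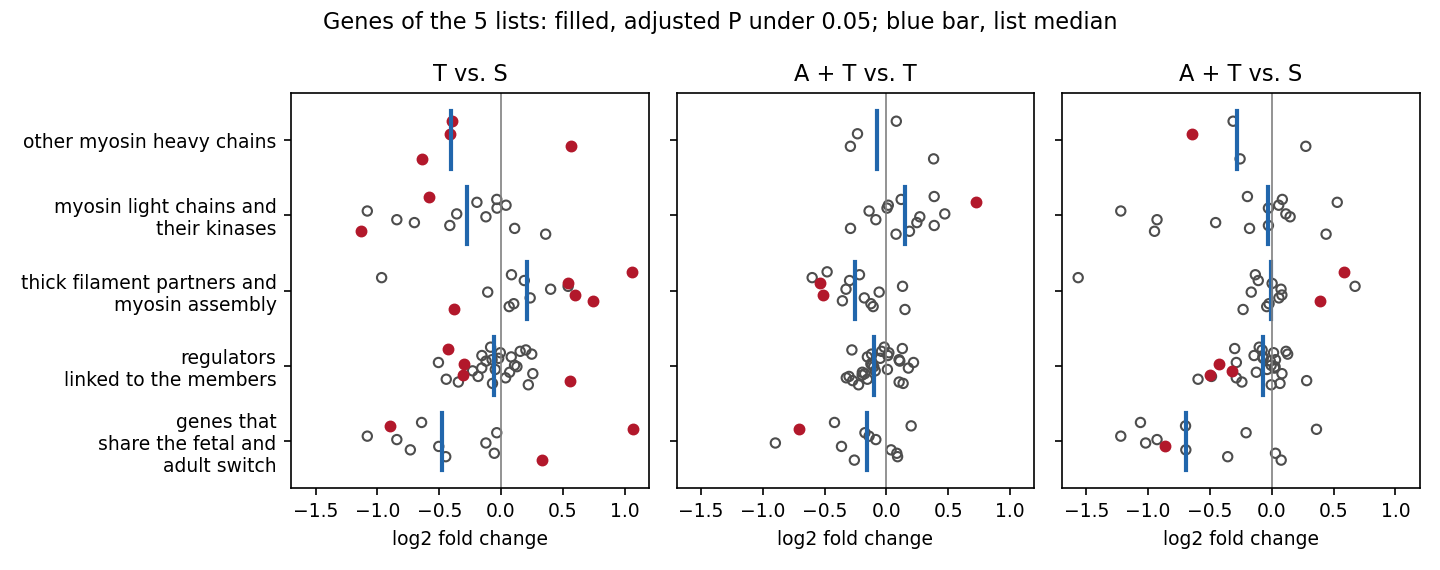
Log2 fold change (x axis) of each tested gene (circles) of the 5 gene lists (y axis) in the 3 comparisons, filled red where the adjusted P from edgeR was under 0.05, with a blue bar at the list's median. The thick filament list lies mostly right of 0 in T vs. S (median 0.21) and left of 0 in A + T vs. T (median −0.26), while no list has more than 5 genes called in a panel.

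By the correlation of TMM log2 CPM over the 9 libraries, the 5 genes with the pattern most like Myh7 were Sf3b2 (r = 0.989), Pla2g12a (0.984), Adarb1 (0.980), Cnksr1 (0.980) and Syt12 (0.979). Their changes were smaller than that of Myh7, with log2 fold changes in T vs. S from 0.34 for Sf3b2 to 2.79 for Syt12. Syt12 was at 1.91 ± 0.61 CPM in S, 13.0 ± 2.08 CPM in T and 3.49 ± 0.45 CPM in A + T (mean ± SD, n = 3). The 5 most like Myh6 were Itsn1 (0.963), 9330102E08Rik (0.960), Tmem150a (0.952), Zc3h8 (0.947) and Ttc28 (0.941), and the 5 most like Myh7b were Hmcn1 (0.955), Pla2g6 (0.909), Capn15 (0.905), Proser1 (0.902) and Sned1 (0.897). No gene of the fixed lists was among these 15. They were picked as the closest of the genes tested to each member, so the coefficients describe likeness and are not tests.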

How the data were processed

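Hearts of 9 mice were analysed, 3 a group, named by the labels and numbered by animal. Per the labels and the study's methods, mRNA libraries were made by the authors from total RNA, read as 75-base paired ends and mapped to mm10 by STAR. Uniquely mapped pairs were counted per gene by strand, at a mapping quality of at least 10. They deposited raw counts, and log2 values that equal edgeR's log2 CPM (TMM, prior count 2) minus a constant per gene (median SD 1.66e-05 across libraries), as for log2 RPKM, with implied lengths of 6.11, 6.09 and 6.17 kb for Myh6, Myh7 and Myh7b. The submitters' notes name edgeR, and the labels place extraction and sequencing of all hearts in a single round.

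Members and lists were chosen with earlier results of these data known. Genes with under 0.5 CPM in more than 4 libraries were removed (526 of 13890). edgeR 4.0.16 (R 4.3.3) was run on the counts with library totals over all genes, TMM and all 9 libraries in 1 quasi-likelihood fit, and calls were made at a Benjamini-Hochberg adjusted P under 0.05 over the 13364 genes. The fit was tested on simulated counts. Genes named are the members, list genes called or highest by CPM in their list, and the 5 most correlated with each member. Myl3, Mybpc3, Thra, Thrb, Nppa, Acta1, Pabpn1, Efs, Bmp10 and Scgb1a1 were named besides, after their values were seen. Transcripts and coordinates come from GENCODE M21 (GRCm38), and coding sequences were aligned with Biopython 1.88. Animals are separate in the labels, and replicate libraries differed by more than counting noise. Counts carry no molecular identifiers, so the Wilson intervals of shares cover counting error only, whereas the intervals of fold changes from edgeR include the spread between animals.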

Additional observations from a re-analysis of the deposited data

How the results depend on the processing

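Myh7 kept its direction in the 3 comparisons under DESeq2 1.42.0, limma 3.58.1 on the deposited log2 values, 3 other scalings, 2 other filters, fits of 2 groups alone, the table without Rn45s, scaling without the members and each animal left out. With an animal left out its log2 fold change ranged from 3.10 to 3.26 in T vs. S, from −2.38 to −2.28 in A + T vs. T and from 0.77 to 0.93 in A + T vs. S. No member changed direction under any of these. Myh6 in T vs. S became called with DESeq2 (−0.57), with S and T alone (−0.57) and with scaling by cardiomyocyte genes (−0.58), and ranged from −0.75 to −0.45 with an animal left out. It ranged from 0.13 to 0.50 in A + T vs. T and from −0.44 to −0.07 in A + T vs. S, uncalled in each. Myh7b in A + T vs. T ranged from 0.31 to 0.72, and it was called in 1 of 9 such fits. The cause was not tested. Scaling by cardiomyocyte genes moved the median log2 fold change of all genes to 0.111 in A + T vs. T and 0.115 in A + T vs. S, and those of Myh7 were then −2.23 and 0.94. The Myh7 share moved by less than 1 SD under counts per kilobase and under a sum over all myosin heavy chains listed. With an animal left out it ranged from 5.39% to 5.501% in S, from 41.9% to 46.7% in T and from 9.73% to 13.0% in A + T.

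The number of genes called was 2837 in T vs. S, 786 in A + T vs. T and 1110 in A + T vs. S. It was 1637, 438 and 555 with library totals alone, and in A + T vs. T 1198 with DESeq2 and 217 with T and A + T alone. With an animal left out it ranged from 1765 to 3786, from 130 to 1006 and from 269 to 1086 in that order. The smallest were those without animal 11 in each comparison that uses T, and without animal 2 in A + T vs. S. In an alternative chosen after seeing the data, without animal 22, the light chain list had 5 called in T vs. S (2 with it) and 1 in A + T vs. S (0 with it), and the fetal and adult switch list 2 in A + T vs. T (1 with it) and 3 in A + T vs. S (1 with it). Over all genes, that fit called 3786 in T vs. S, 1006 in A + T vs. T and 900 in A + T vs. S. No paired analysis was possible because the labels number animals and pair none. With 3 animals a group, the intervals of Myh6 and Myh7b allow differences of up to about 1 on the log2 scale.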
